A study of Mus musculus with 6 samples.

Results

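The 36 genes described here encode the glutathione and thioredoxin systems, the peroxiredoxins and other antioxidant enzymes, the transcription factor NRF2 with its inhibitor and targets, and 3 subunits of the phagocyte NADPH oxidase. They were taken by symbol from a table of 18697 genes, and each of the 36 symbols was found in it. A filter on low counts kept 35 of them among the 13753 genes tested, and it left out Gsta1. The table came from mouse prostates with experimental autoimmune prostatitis (EAP), in which an immune response to prostate antigens inflames the gland. One group of 3 libraries came from EAP mice that had received VUF11207, an agonist of the chemokine receptor CXCR7, at 5 mg per kg per day for 14 days by intraperitoneal injection. The other group of 3 came from EAP mice given an equal amount of DMSO, the vehicle, in the same way. Both groups carried the disease, and prostates without EAP were not analysed here. The sources used here name no strain or age and do not tie a library to a mouse. The p-values therefore measure the spread between these samples, which may be technical.

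NRF2, encoded by Nfe2l2, is a transcription factor that KEAP1 holds in the cytoplasm and marks for degradation. Oxidants and electrophiles modify KEAP1, and NRF2 then enters the nucleus and binds antioxidant response elements near genes for glutathione synthesis, thioredoxin recycling and detoxification. Glutathione peroxidases and peroxiredoxins reduce peroxides, superoxide dismutases convert superoxide to hydrogen peroxide, and the NADPH oxidase of macrophages and neutrophils makes superoxide on purpose.

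Total counts per library ranged from 20308018 to 33368058. Levels are given in CPM, counts per 1000000 after scaling with TMM factors, which discount genes that dominate 1 library. Values for the 6 libraries stand in 1 order throughout. First is the DMSO library whose column could not be matched to a replicate number, called unnumbered here. DMSO replicates 2 and 3 follow, then VUF11207 replicates 1, 2 and 3. Seminal vesicle genes (9 of 10 listed were found) took 0.700%, 64.9%, 16.3%, 28.1%, 3.11% and 3.54% of counts, and the TMM factor of DMSO replicate 2 was 0.425. Smooth muscle markers (6 of 6 found, none at 0 in any library) summed to 15415, 4806, 4364, 8523, 19414 and 4146 CPM, highest in the unnumbered DMSO library and VUF11207 replicate 2. Prostate secretory markers (8 of 8 found, none at 0) summed to between 40553 and 193512 CPM, so each library carried transcripts of the labelled tissue. In such bulk samples, fewer cells of a type and less RNA per cell cannot be told apart.

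The core of the antioxidant response element, TGACNNNGC, was searched on both strands of the RefSeq promoter windows (build GRCm38.p6, from 250 bases before to 50 after the start), where 30 of the 36 genes had an entry. It was present for 7 of these 30 genes (23.3%), against 14% of all 27025 genes with such a window. The matches are printed because they show which of these genes carry the letters NRF2 is known to bind close to the start. Each stretch is on the gene's strand, with the core in capitals, and GC first in the capitals means that the core lies on the opposite strand.
Gclm, chr3:122245403-122245451: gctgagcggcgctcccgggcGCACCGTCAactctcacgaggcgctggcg
Prdx1, chr4:116685446-116685494: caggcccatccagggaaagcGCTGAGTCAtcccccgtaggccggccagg
Txnrd1, chr10:82859094-82859142: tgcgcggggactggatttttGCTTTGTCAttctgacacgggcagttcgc
Sod1, chr16:90220686-90220734: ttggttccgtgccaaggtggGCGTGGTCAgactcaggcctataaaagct
Gsta3, chr1:21240444-21240492: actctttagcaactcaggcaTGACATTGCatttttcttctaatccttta
Nfe2l2, chr2:75704875-75704913: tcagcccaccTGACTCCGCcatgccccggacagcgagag

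The core began 134 bases before the start in Gclm, 133 in Prdx1, 92 in Txnrd1, 56 in Sod1, 121 in Gsta3 and 240 in Nfe2l2. The match of Srxn1 lay after the start and is not printed. A match is a run of letters and not a shown site of binding. No entry was used for Gclc, Gsr, Hmox1, Gsta4, Sod3 and Prdx6.

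Between VUF11207 and DMSO, 0 of the 35 genes tested passed an adjusted p of 0.05 in edgeR's quasi-likelihood test with Benjamini-Hochberg adjustment over all genes, against 0% of all genes tested. At an unadjusted p under 0.05 there were 0 of 35, against 1.43% of all genes. DESeq2 and limma voom called 0 of these genes too, with 1 each at an unadjusted p under 0.05. Of the 35, 19 had a positive and 16 a negative log2 fold change, with a median of 0.02 beside -0.04 over all genes tested. With libraries scaled by their totals alone, 26 were positive and the median was 0.24, beside 0.14 over all genes. No gene of the 35 had groups that did not overlap, against 3.05% of all genes separated upward and 2.52% downward with VUF11207. Fold changes ran from -0.69 for Gsta3 to 1.25 for Gpx3. The 95% intervals of all 35 included 0, and those of 13 reached past 2-fold in both directions, so these values do not show equal levels.

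**Figure D1:**
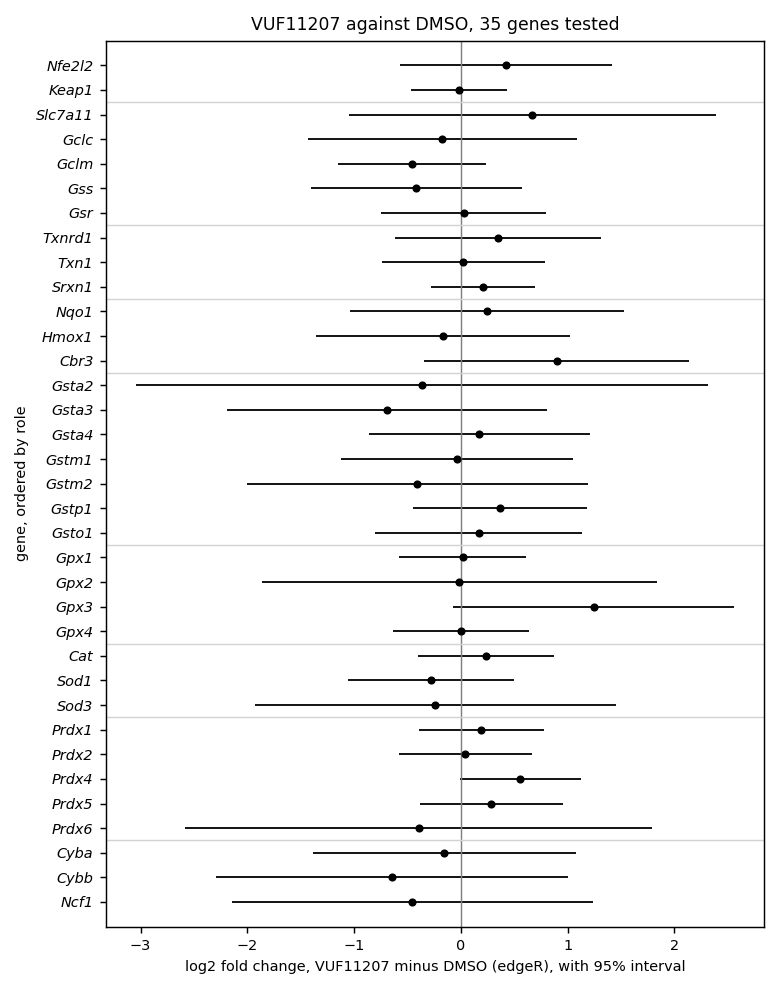
Log2 fold change of VUF11207 against DMSO (horizontal axis, edgeR) for the 35 genes tested, ordered by role on the vertical axis, with grey lines between roles. Points are estimates and bars are 95% intervals; each bar crosses 0, Prdx4 only just, and Gpx3 has the highest estimate at 1.25.

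The libraries differed widely within each treatment. For the median gene of the 35, the highest library was 2.96 times the lowest, against 2.24 times for all genes tested. On the TMM scale the unnumbered DMSO library held the lowest level of 16 of the 35 genes (45.7%), against 28.2% of all genes tested. Together with VUF11207 replicate 2 it held the lowest levels of 11 genes (17.7% of all genes tested had this pattern), and the highest levels of 9 others (20.1% of all). With library totals these counts were 4 (1.93% of all) and 11 (32.7% of all). This pair was picked after all 15 pairs of libraries had been tabulated. These libraries, one from each treatment, were also those with the highest smooth muscle sums. The part of tissue makeup in these levels was not tested.

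**Figure D2:**
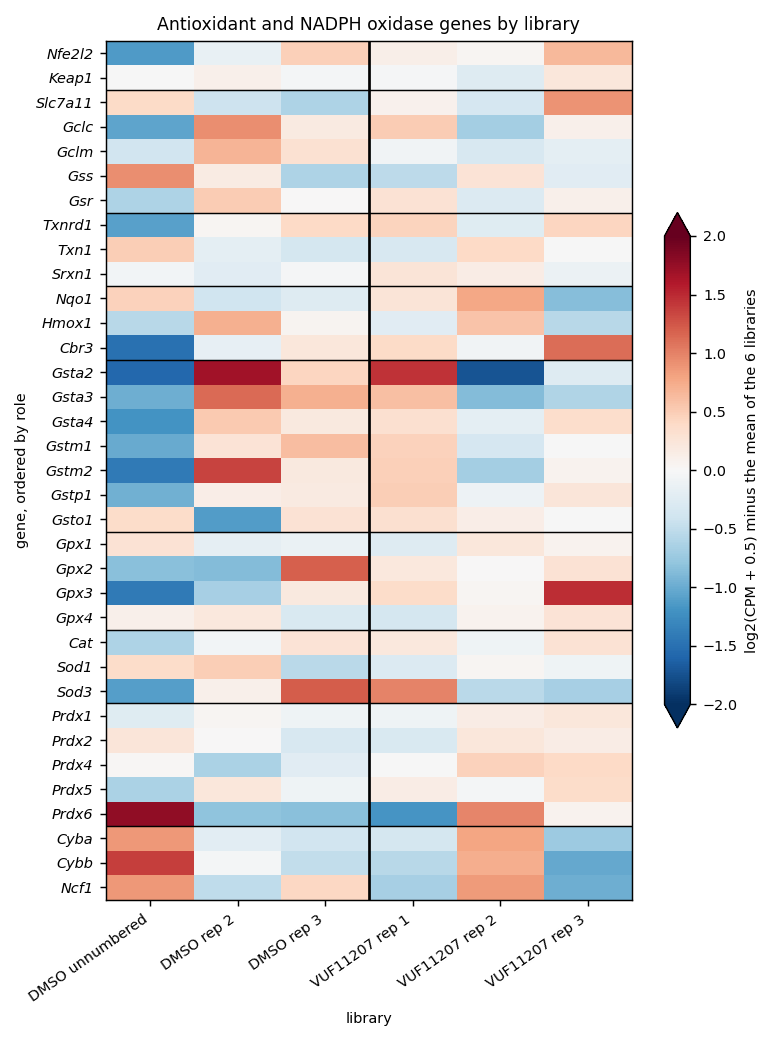
Level of each of the 35 genes tested in each library, as the difference of log2(CPM + 0.5) from its 6-library mean (colour), with genes ordered by role and a thick line between DMSO and VUF11207. The unnumbered DMSO library and VUF11207 replicate 2 share blue for most glutathione transferases and red for Prdx6 and the 3 oxidase subunits.

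Keap1 was among the steadiest of these genes and Nfe2l2 varied more. Nfe2l2 lies at chr2:75675513-75704641 (build mm10, as are all positions below). Nfe2l2 was at 15.1, 30.6, 47.5, 36.8, 34.6 and 53.3 CPM. The unnumbered DMSO library was lowest and VUF11207 replicate 3 highest, with DMSO replicate 3 above the other VUF11207 libraries, so the groups overlapped. Its means were 31.1 CPM ± 16.2 with DMSO and 41.6 CPM ± 10.2 with VUF11207 (SD, n = 3 each). The log2 fold change of Nfe2l2 was 0.42 ± 0.42 (SE). Without the unnumbered DMSO library it was 0.09. Keap1, which encodes the adaptor that marks NRF2 for degradation, was at 48.1, 51.8, 47.2, 47.9, 40.6 and 56.8 CPM. Its highest library was 1.40 times its lowest, and its log2 fold change was -0.02 ± 0.19 (SE), with a 95% interval from -0.47 to 0.43. Of the exon bases of Keap1, 10.9% overlap an antisense gene, and without a known strand setting those reads cannot be assigned.

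Among genes of glutathione synthesis and recycling, 2 of 5 had positive and 3 negative fold changes, with a median of -0.17 that turned to 0.27 when libraries were scaled by their totals alone. Slc7a11 encodes the cystine transporter that supplies cysteine for glutathione. It was at 1.48, 0.634, 0.485, 1.116, 0.705 and 2.33 CPM, close to the filter, from 9 to 69 counts per library. Its log2 fold change of 0.67 ± 0.72 (SE) was 0.07 without VUF11207 replicate 3. Gclc, the catalytic subunit of glutamate-cysteine ligase, was at 16.3, 65.8, 39.0, 49.2, 21.1 and 36.9 CPM. Its 6 levels stood in the same order as the shares of seminal vesicle counts, an order that 1.48% of all genes tested had on this scale. Scaled by totals, Gclc did not have it. The orders of 15 marker lists were set beside the genes in this way under 3 scalings, after the likeness had been seen. The log2 fold change of Gclc was -0.17 ± 0.53 (SE), and it was 0.38 without DMSO replicate 2.

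Gclm, the modifier subunit of the same ligase, lies at chr3:122245557-122270732 and carries the element core printed above. It was at 60.2, 127, 97.8, 75.1, 63.3 and 68.7 CPM. DMSO replicates 2 and 3 were above the 3 VUF11207 libraries and the unnumbered DMSO library was below them. The means were 95.02 CPM ± 33.5 and 69.0 CPM ± 5.89 (SD, n = 3 each), and the log2 fold change was -0.46 ± 0.29 (SE) with an unadjusted p of 0.160 in edgeR. It was -0.19 without DMSO replicate 2 and -0.70 without the unnumbered DMSO library. Gss, glutathione synthetase, was at 82.9, 48.8, 28.2, 30.1, 52.7 and 37.1 CPM, highest in the unnumbered DMSO library. Gsr, the reductase that restores reduced glutathione, was at 15.0, 33.4, 23.4, 28.7, 19.3 and 25.0 CPM. On the TMM scale the unnumbered DMSO library thus had the highest Gss level and the lowest levels of Gclc, Gclm and Gsr.

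The 3 genes of the thioredoxin arm had positive fold changes, and none passed the test. That of Txn1 was only 0.02 and turned negative without DMSO replicate 2, DMSO replicate 3 or VUF11207 replicate 2, and that of Txnrd1 was -0.11 in a fit of the 4 libraries with shared replicate numbers that had the number as a block. Txnrd1, thioredoxin reductase 1 and a classical NRF2 target with the core in 1 of its 3 promoter windows, was at 14.0, 31.0, 39.8, 41.4, 25.5 and 40.9 CPM. Its log2 fold change of 0.35 ± 0.40 (SE) was 0.02 without the unnumbered DMSO library. Srxn1, sulfiredoxin, which repairs overoxidised peroxiredoxins, was steady at 14.0, 12.3, 14.3, 17.4, 16.1 and 13.3 CPM, with a log2 fold change of 0.21 ± 0.20 (SE). Txn1, thioredoxin itself, was at 255, 159, 143, 145, 240 and 181 CPM. On the TMM scale Txn1 was highest and Txnrd1 lowest in the unnumbered DMSO library and VUF11207 replicate 2. With library totals Txn1 was still highest there, and Txnrd1 was lowest in DMSO replicate 2.

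Nqo1, Hmox1 and Cbr3 encode NAD(P)H quinone dehydrogenase 1, heme oxygenase 1 and carbonyl reductase 3, enzymes widely used as readouts of NRF2. Nqo1 was at 6.25, 3.24, 3.62, 5.41, 7.95 and 2.23 CPM. Its highest and lowest libraries, VUF11207 replicates 2 and 3, belong to the same group. The log2 fold change of 0.25 ± 0.54 (SE) was -0.19 without VUF11207 replicate 2. Hmox1 was at 3.18, 8.31, 5.14, 4.12, 7.48 and 3.18 CPM, a log2 fold change of -0.17 ± 0.50 (SE) that turned to 0.28 with library totals. Cbr3 was at 4.07, 10.99, 14.6, 16.2, 11.7 and 27.4 CPM. VUF11207 replicate 3 was highest and the unnumbered DMSO library lowest, and the other 4 libraries lay between 10.99 and 16.2 CPM with both groups mixed. For Cbr3 the log2 fold change was 0.90 ± 0.52 (SE), with an unadjusted p of 0.130 in edgeR and a value of 0.49 without VUF11207 replicate 3. These readouts thus had no common order of libraries.

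Glutathione transferases, which couple glutathione to electrophiles, were lowest in the unnumbered DMSO library and VUF11207 replicate 2 for 6 of the 7 tested, against 17.7% of all genes. With libraries scaled by totals alone, which does not discount the seminal vesicle counts, this held for 3 of 7 (1.93% of all genes). Gstm2, a mu-class enzyme, was at 99.99, 681, 304, 371, 166 and 279 CPM, in the order of the seminal vesicle shares, an order it did not have with library totals. Gstm1, also of the mu class, was at 148, 362, 458, 413, 235 and 296 CPM. On this scale both had their lowest level in one DMSO library and their highest in another.

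The alpha-class gene Gsta2 was at 1.04, 14.0, 5.62, 11.8, 0.872 and 3.28 CPM, a range of 16.1-fold and the widest of the 35. Of its 100-base stretches, 28.4% also occur in transcripts of other genes, Gsta1 and Gm10639 above all, so its value is uncertain. Gsta1 had 0, 0, 6, 2, 0 and 4 counts, and 80.6% of its 100-base stretches are shared, mainly with Gm3776. Gsta3, without any shared stretch and with the core in its promoter window, was at 6.03, 27.7, 20.5, 18.9, 6.58 and 8.01 CPM. The means of Gsta3 were 18.1 CPM ± 11.03 and 11.2 CPM ± 6.76 (SD, n = 3 each), with a log2 fold change of -0.69 ± 0.63 (SE) that was -0.24 without DMSO replicate 2. Gsta4, which acts on the lipid peroxidation product 4-hydroxynonenal, was at 25.6, 85.4, 68.2, 74.0, 51.7 and 76.1 CPM.

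Gstp1 was at 26.6, 57.0, 59.2, 73.5, 48.5 and 61.9 CPM, and 25.1% of its 100-base stretches are shared with Gstp2. Gsto1, of the omega class, was the exception among the 7. It was lowest in DMSO replicate 2, at 17.2, 5.85, 16.3, 16.6, 14.6 and 13.2 CPM. Of the 7 transferases, 3 had positive and 4 negative fold changes between treatments, and with library totals 6 were positive.

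Gpx3 had the largest fold change of the 35 genes. It lies at chr11:54902453-54910377 and encodes the secreted, plasma-type glutathione peroxidase, a selenoprotein. It was at 135, 229, 415, 466, 374 and 1008 CPM. VUF11207 replicate 3 stood above all others, and the other VUF11207 libraries lay on either side of DMSO replicate 3. The means were 260 CPM ± 143 with DMSO and 616 CPM ± 343 with VUF11207 (SD, n = 3 each). The log2 fold change was 1.25 ± 0.55 (SE), with a 95% interval from -0.07 to 2.56, an unadjusted p of 0.0604 and an adjusted p of 0.9999 in edgeR. It was 0.69 without VUF11207 replicate 3 and 1.76 without DMSO replicate 3. Gpx3 ranked 55th among all genes by counts in VUF11207 replicate 3 and between 174th and 696th elsewhere. The sums of prostate secretory, epithelium and urothelium markers were also lowest in the unnumbered DMSO library and highest in VUF11207 replicate 3. For urothelium markers these were 58.0 and 430 CPM. With library totals Gpx3 had the urothelium order, as did 1.83% of all genes tested, but not on the TMM scale. Their part in the level of Gpx3 was not tested.

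The other glutathione peroxidases had estimates near 0, with intervals of different width. Gpx1, the cytosolic enzyme, was at 244, 176, 181, 167, 232 and 209 CPM. Gpx4, which reduces lipid hydroperoxides in membranes and protects from ferroptosis, was at 221, 237, 166, 160, 215 and 250 CPM. In both, the highest library was at most 1.56 times the lowest. Gpx4 shares 25.2% of its 100-base stretches with its pseudogene Gpx4-ps2. Gpx2, the epithelial form, was low, at 0.888, 0.845, 5.14, 2.37, 1.98 and 2.502 CPM. Its log2 fold change of -0.02 ± 0.78 (SE) had a 95% interval from -1.87 to 1.83, and it ran from -0.40 without the unnumbered DMSO library to 1.40 without DMSO replicate 3.

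Catalase and the superoxide dismutases were mixed, with 1 of 3 positive and a median of -0.24, which turned to 0.0096 with library totals. Cat was at 39.6, 59.1, 74.3, 70.9, 57.7 and 74.9 CPM. For Cat the log2 fold change was 0.23 ± 0.27 (SE), and it was 0.03 when the unnumbered DMSO library was left out. Sod1, the cytosolic copper-zinc enzyme, was at 360, 393, 190, 230, 287 and 261 CPM. Sod3, the extracellular enzyme of the matrix, ranged more widely, at 4.85, 11.8, 26.1, 22.3, 7.35 and 6.73 CPM, highest in DMSO replicate 3 and VUF11207 replicate 1. Skeletal muscle markers (8 of 8 found, 1 at 0 in the unnumbered DMSO library) also had their highest sums there, at 4409 and 4843 CPM against 410 to 1180 CPM elsewhere. Their part in the level of Sod3 was not tested.

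Prdx6 took the most counts of the 36 genes in each library, and of the 35 tested only Gsta2 had a wider range. It lies at chr1:161240112-161251219 and encodes the 1-Cys peroxiredoxin, which uses glutathione and also has phospholipase activity. It was at 6614, 1104, 1076, 853, 3789 and 2037 CPM. The unnumbered DMSO library and VUF11207 replicate 2 were highest, and the highest library was 7.75 times the lowest. In the unnumbered DMSO library Prdx6 took 0.880% of all counts (Wilson 95% interval 0.876% to 0.884%, counting error only) and ranked 5th among all genes. It ranked 16th in VUF11207 replicate 2, 22nd in VUF11207 replicate 3 and between 38th and 74th in the others. In that DMSO library it alone made up most of the 1.23% of counts that the 36 genes took together.

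Between treatments Prdx6 had a log2 fold change of -0.40 ± 0.92 (SE), with a 95% interval from -2.58 to 1.79. Without the unnumbered DMSO library it was 1.03, and without that library and VUF11207 replicate 2 it was 0.41. Without VUF11207 replicate 1 it was 0.04, so its sign rested on which libraries were kept. No 100-base stretch of its transcripts occurs in another gene. With library totals alone the same libraries were highest, at 8802 and 4722 CPM against 470 to 2318 CPM. Smooth muscle, macrophage and T cell markers were highest in the same libraries, and the T cell markers (7 of 8 found, none at 0) summed to 19.2, 5.64, 10.6, 5.95, 22.1 and 6.19 CPM. Their part in the level of Prdx6 was not tested.

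**Figure D3:**
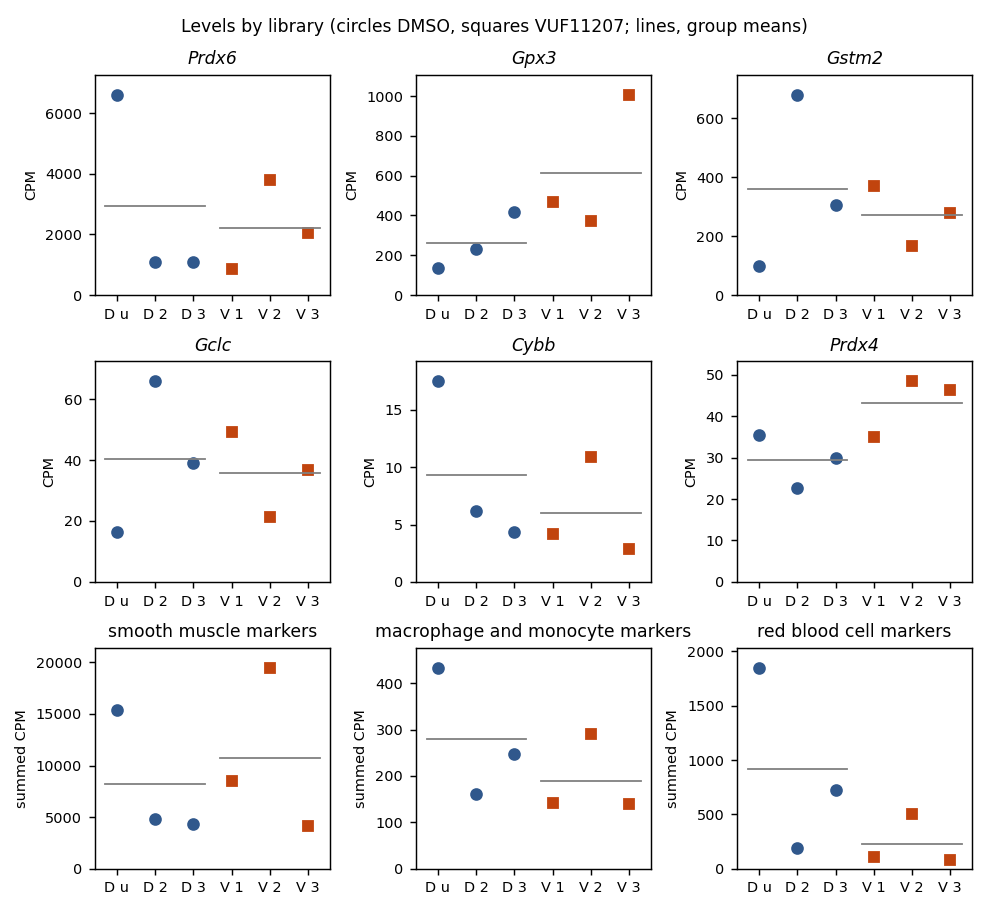
CPM of 6 genes (first 6 panels) and summed CPM of 3 marker lists (last row) in each library, with circles for DMSO, squares for VUF11207 and grey lines for group means; D u is the unnumbered DMSO library, and the digits are replicate numbers. Prdx6 and Cybb are highest in D u and V 2, as are the smooth muscle and macrophage sums, while Gstm2 and Gclc are lowest there.

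The 2-Cys peroxiredoxins were steadier than Prdx6. Prdx1, with the element core in its promoter window, was at 362, 441, 404, 404, 474 and 500 CPM, a range of 1.38-fold. Prdx2 was at 230, 196, 155, 156, 225 and 215 CPM. Prdx5, which also acts in mitochondria and peroxisomes, was at 108, 196, 158, 185, 162 and 215 CPM, and 19.1% of its exon bases overlap Trmt112 on the opposite strand.

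Prdx4, the peroxiredoxin of the endoplasmic reticulum, had the smallest p of the 35 and lies at chrX:155323918-155340754. It was at 35.6, 22.6, 29.96, 34.99, 48.4 and 46.4 CPM. VUF11207 replicates 2 and 3 were above all DMSO libraries, and VUF11207 replicate 1 was just below the unnumbered DMSO library. The means were 29.4 CPM ± 6.51 and 43.3 CPM ± 7.23 (SD, n = 3 each). The log2 fold change was 0.56 ± 0.24 (SE), with a 95% interval from -0.01 to 1.124, an unadjusted p of 0.0533 and an adjusted p of 0.9999 in edgeR. It lay between 0.41 and 0.72 with any 1 library left out.

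The oxidase subunits were the 1 group in which every tested gene had a negative fold change, with a median of -0.46. The median was -0.41 with library totals and -0.45 with RLE factors. It turned to 0.19 without the unnumbered DMSO library and to 0.12 in the replicate block, with 2 of 3 positive in each. Without VUF11207 replicate 3 it was -0.10, and without VUF11207 replicate 2 it was -1.40. Cybb, at chrX:9435252-9487771, encodes gp91phox, the catalytic subunit, Cyba its membrane partner p22phox, and Ncf1 the cytosolic organiser p47phox. Cybb was at 17.5, 6.1997, 4.36, 4.19, 10.9 and 2.87 CPM. Cyba was at 27.5, 12.7, 11.3, 11.5, 26.0 and 8.76 CPM. Ncf1 was at 5.92, 1.97, 4.17, 1.72, 5.80 and 1.29 CPM. The 3 genes thus had the same highest libraries, 1 from each treatment, and the same lowest library, VUF11207 replicate 3. Cybb had a log2 fold change of -0.64 ± 0.69 (SE), which was 0.19 without the unnumbered DMSO library.

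Macrophage and monocyte markers (12 of 12 found, none at 0) summed to 432, 162 and 247 CPM with DMSO and to 142, 290 and 139 CPM with VUF11207. All 12 had negative fold changes, with a median of -0.53 and 0 called. On the TMM scale the 6 sums stood in the order of Ncf1, as they did for 0.480% of all genes tested, but not with library totals or RLE factors. Neutrophil markers, of 8 listed and found, were scarce. They summed to 14.7, 10.1 and 4.17 CPM with DMSO and 1.18, 2.95 and 0.473 CPM with VUF11207, with 1 to 5 of the 8 at 0 in a library. The part of these cells in the oxidase levels was not tested.

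Compared per kb of annotated exon, which allows a rough comparison of genes of different length, the 36 genes spanned a wide range of levels. The length is the union of all annotated exons of a gene. It may exceed that of the expressed transcript, so the ranking depends in part on the annotation. Prdx6 averaged 537 CPM per kb over the 6 libraries, from 178 to 1377, followed by Gpx3 at 242, Gstm1 at 216, Gstm2 at 189 and Txn1 at 178 CPM per kb. The ranges of these 5 genes overlapped, so their order differs between libraries. Prdx1, Gpx1 and Gpx4 followed at 142, 140 and 121 CPM per kb. The regulator Nfe2l2 averaged 9.57 and Keap1 10.4 CPM per kb, and the inducible targets Nqo1 and Hmox1 3.08 and 2.99 CPM per kb. Cybb, Ncf1, Gpx2, Slc7a11 and Gsta1 were the 5 lowest, at 1.32, 0.950, 0.710, 0.0808 and 0.0692 CPM per kb.

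**Figure D4:**
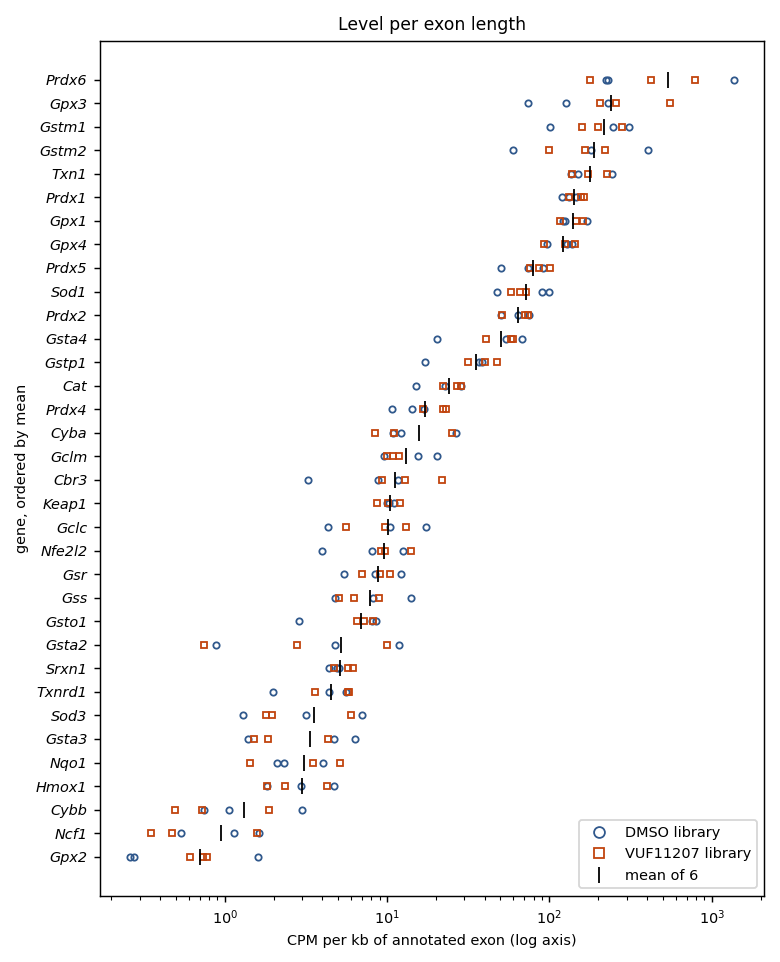
CPM per kb of annotated exon (horizontal log axis) of 34 of the 36 genes, ordered by their mean, with circles for DMSO libraries, squares for VUF11207 libraries and a bar for the mean of 6. Slc7a11 and Gsta1, with means under 0.5, are left out; Prdx6 spans 178 to 1377 CPM per kb and overlaps Gpx3, Gstm1 and Gstm2.

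Of 92 further genes of glutathione, thioredoxin, NRF2 and oxidase biology, each found in the table, 84 were tested. None passed the adjusted threshold, 1 was at an unadjusted p under 0.05, and 41 had positive and 43 negative fold changes with a median of -0.02. With VUF11207, 3 of the 84 lay above every DMSO library and 1 below, against 3.05% and 2.52% of all genes tested. Akr1b8, an aldo-keto reductase, was at 4.48, 5.99 and 6.75 CPM with DMSO and 9.30, 11.1 and 14.0 CPM with VUF11207. Its log2 fold change was 1.001 ± 0.29 (SE), with an unadjusted p of 0.0107 and an adjusted p of 0.9999 in edgeR. Its 6 levels stood in the order of the summed prostate secretory markers, which 0.444% of all genes tested did. Akr1b8 did not have that order with library totals.

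Txnrd3, the thioredoxin-glutathione reductase known from testis, was at 4.59, 6.69 and 7.34 CPM against 10.8, 7.82 and 11.5 CPM, a log2 fold change of 0.69 ± 0.30 (SE). Gstk1, the kappa-class transferase of mitochondria and peroxisomes, was at 8.88, 41.1 and 50.5 CPM against 59.4, 57.9 and 129 CPM. Its log2 fold change of 1.29 ± 0.65 (SE) was 0.81 without VUF11207 replicate 3 and 0.84 without the unnumbered DMSO library. Mafg, a small MAF protein that pairs with NRF2 on DNA, was lower with VUF11207, at 36.3, 24.5 and 31.1 CPM against 24.1, 23.8 and 21.4 CPM. The difference for Mafg was -0.41 ± 0.20 (SE) in log2. None of the 4 passed the adjusted threshold in edgeR, and they are named because their groups did not overlap.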

How the data were processed

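Prostate RNA of 6 libraries was sequenced. The deposited table holds raw read counts per gene symbol. HTSeq, HISAT2, fastp and build mm10 are named, per the submitters' processing notes. The sources used here give no versions, annotation, strand setting or handling of shared reads. The 5 per-sample files were identical to their columns. The remaining DMSO column matched no sample's file and entered its group without a number.

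Counts were filtered (filterByExpr) and TMM-scaled, and all 13753 genes were fitted with edgeR 4.0.16 (quasi-likelihood, robust, two-sided, Benjamini-Hochberg, threshold 0.05) in R 4.3.3. The fit was run on simulated counts at the spread of these libraries and at a lower one. A pass mark was set only at the lower spread. Recovery at the spread of these libraries was computed and is not given here. SE came from the fold change and F statistic. An exact permutation test of 3 against 3 cannot go below 0.1, so none was used. DESeq2 1.42.0, limma 3.58.1 and other settings were alternatives. Positions and exon lengths are from GENCODE M21. Sequences are RefSeq's, handled in Python 3.11.15.

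Members and lists were chosen with earlier results of these data known. Fold changes are given for 13 members fixed by role, the 5 with smallest p and any without overlap. Those of Gpx2 and Txn1 are given outside this rule. Among other pathway genes fold changes are given for those without overlap at an average log2 CPM of at least 1.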

Additional observations from a re-analysis of the deposited data

How the results depend on the processing

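Members called stayed at 0 in each setting. Over all genes, DESeq2 called 4 and totals-only scaling 3 genes, none of the 36, and the other settings 0. The median of the members was 0.24 with library totals (0.14 over all genes) and positive in each setting. Members whose groups did not overlap numbered from 1 (without VUF11207 replicate 3) to 6 (without VUF11207 replicate 2) of 35 with 1 library left out, where 10.5% and 13.3% of all genes did so. They numbered 4 without the 2 libraries richest in seminal vesicle counts (24.7% of all genes), and 11 without the 2 richest in smooth muscle markers (22.4% of all genes). The last setting was chosen after seeing the data. Smaller groups separate more easily by construction, and nothing is read from these counts.

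These fold changes turned sign, and the cause was not tested. With library totals Keap1 was at 0.18, Hmox1 at 0.28 and Gclc at 0.27. Without the seminal vesicle rich libraries these were 0.054, 0.37 and 0.085. Without the smooth muscle rich libraries Keap1 was at 0.081 and Prdx6 at 0.41. With 1 library left out, Keap1 ran from -0.15 to 0.10, Nqo1 from -0.19 to 0.61, Hmox1 from -0.60 to 0.25, Gclc from -0.55 to 0.38, Prdx6 from -1.01 to 1.03 and Cybb from -1.40 to 0.19.

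The replicate block, which left out the unnumbered DMSO library and VUF11207 replicate 1, used the 4 libraries with replicate numbers known in both groups. It called 0 genes, with 834 at an unadjusted p under 0.05, and gave -0.11 for Txnrd1, 1.36 for Prdx6 and 0.12 for Cybb. Deviations of libraries with the same number correlated at -0.37 and 0.06 across genes. Those of the unnumbered DMSO library and VUF11207 replicate 1, whose column headings end in the same digit, correlated at -0.62. The headings of libraries with the same number also end in the same digit across groups. Because the libraries differ widely in tissue markers, these correlations cannot show whether libraries were paired. The labels state no pairing, so the numbers were not taken as pairs.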

Other observations

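On the TMM scale 3 other genes of the pathway, chosen after their values were seen, were highest in DMSO replicate 2, the library with most seminal vesicle counts. Ggt1, the gamma-glutamyltransferase that begins the breakdown of extracellular glutathione, was at 14.4, 420, 84.8, 105, 32.2 and 44.0 CPM, for the unnumbered DMSO library, DMSO replicates 2 and 3 and VUF11207 replicates 1, 2 and 3 in turn. This order was that of the seminal vesicle shares, also with library totals. Glrx, glutaredoxin, was at 29.9, 200, 79.2, 85.6, 50.2 and 43.3 CPM. With library totals it was at 97.4 CPM in DMSO replicate 3 and 85.0 CPM in DMSO replicate 2, so it was not highest there. Slc3a2, which pairs with Slc7a11 in the cystine transporter, was at 97.4, 317, 110, 132, 94.6 and 100.1 CPM, and its partner was low in DMSO replicate 2, at 0.634 CPM. With library totals Slc3a2 was nearly level, from 114 to 135 CPM. None of the 3 passed the adjusted threshold in edgeR.

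The ferritin chains Fth1 and Ftl1, which store iron, did not share an order. Fth1 was at 3238, 1510, 1800, 1410, 2424 and 1241 CPM, in the order of the summed macrophage and monocyte markers, which 0.480% of all genes tested had on the TMM scale. Ftl1 was at 1668, 1838, 1136, 901, 1155 and 858 CPM, with DMSO replicate 2 highest. With library totals the unnumbered DMSO library was highest for Ftl1, at 2219 CPM. On that scale Ftl1 had the macrophage order, as did 7.04% of all genes tested, and Fth1 no longer had it.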
